A study of Mus musculus with 2 samples.

Results

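The secreted Wnt ligands, their Frizzled receptors and the secreted or membrane proteins that modulate them were followed through single-nucleus RNA sequencing of the mouse hippocampus. Members were taken by gene symbol alone: every Wnt, Frizzled, Sfrp, Dkk, R-spondin, Lgr4, Lgr5, Lgr6, Lrp5, Lrp6, Ror, Ryk, Wif1 and Kremen gene in the feature list, which gave 53 of 32285 genes. The data are UMI counts, in which a molecular tag lets copies of 1 RNA molecule be counted once. Hippocampi came from 3-month-old mice, and there was 1 library of male and 1 library of female tissue. Both libraries carry the same conditional deletion of Stra8 (genotype Stra8L/-; Nestin-Cre), a gene best known for starting meiosis in germ cells. Under the Nestin promoter, Cre is active in progenitors of the nervous system, whose descendants are neurons and macroglia but not microglia. No library of a control genotype was analysed here, so nothing below measures an effect of the deletion. With 1 library of each sex there is no test, and differences of sex, of animal, of dissection and of library preparation cannot be told apart. How many animals went into a library is not given in the sources used here.

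Wnt proteins are lipid-modified signals that bind a Frizzled receptor together with a co-receptor, Lrp5 or Lrp6 for the route through beta-catenin, and Ror1, Ror2 or Ryk for routes that do not need it. R-spondins raise the sensitivity of a cell to Wnt by binding Lgr4, Lgr5 or Lgr6 and drawing off the ligases Znrf3 and Rnf43, which otherwise remove Frizzled from the membrane. Sfrp, Wif1 and Dkk proteins dampen the signal. In the hippocampus the pathway is known for its part in dentate gyrus development and adult neurogenesis and in the growth of synapses.

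After filtering, 13803 male and 17062 female nuclei were used, with 78062971 UMIs in the male and 87753862 UMIs in the female library and a median of 4321 UMIs per male and 2668.5 UMIs per female nucleus. The libraries shared 101 barcodes, and 87 of these were kept among male and 89 among female nuclei. Stra8 had 2 UMIs in the male and 4 UMIs in the female nuclei used, so its level checks nothing about the deletion. Xist stood at 1.17 CPM in the male library against 2062 in the female, as labelled. Nuclei were clustered without the 53 members, and 16 cell classes were named from marker genes, each to be read as astrocyte-like, microglia-like and so on. No marker list named 11.3% of the male nuclei and 29.1% of the female nuclei. Levels are CPM, the UMIs of a gene scaled to a fixed total of all UMIs of its class and library. The choroid plexus marker list, led by Ttr, summed to 317 to 2589 CPM in the male library against 36.6 to 228 in the female over the 9 classes compared, higher in male in each, and the part of this in the results was not tested. Median UMIs per nucleus were 11244 in male against 12223 in female subiculum neurons, 8342.5 in male against 9033 in female CA1 neurons, 4907.5 in male against 5721 in female granule neurons of cluster 0, 2660 in male against 2813.5 in female oligodendrocyte precursors, 1651 in male against 1719 in female oligodendrocytes and 1541 in male against 1608 in female microglia, so shares of nuclei with a UMI are also given with every nucleus thinned to 1000 UMIs.

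Levels were followed in 15 classes that held 25 or more nuclei in both libraries, and the libraries were compared in the 9 holding 200 or more of both. Classes whose clusters had different leading genes were kept as separate units, named by cluster number. Nuclear RNA counted at the 3′ end varies with a gene's length and intron content, so each member is compared between classes and not with other members. Of the 53 members, 19 reached 50 UMIs over both libraries and 20 CPM in either library in at least 1 class, and these are described in turn. Each had UMIs in both libraries, as did the 34 others. Among the 19, Fzd3, Ror1, Rspo3 and Ryk overlap another gene on the same strand, and Fzd3, Fzd6, Kremen1, Lgr5, Ror1, Rspo3, Wnt5a, Wnt5b and Wnt7b overlap one on the other strand, so reads of these genes may be shared with it. Intervals are exact 95% intervals and cover counting error only. Because clusters were built from these same nuclei, a class standing above the others is a description.

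**Figure D1:**
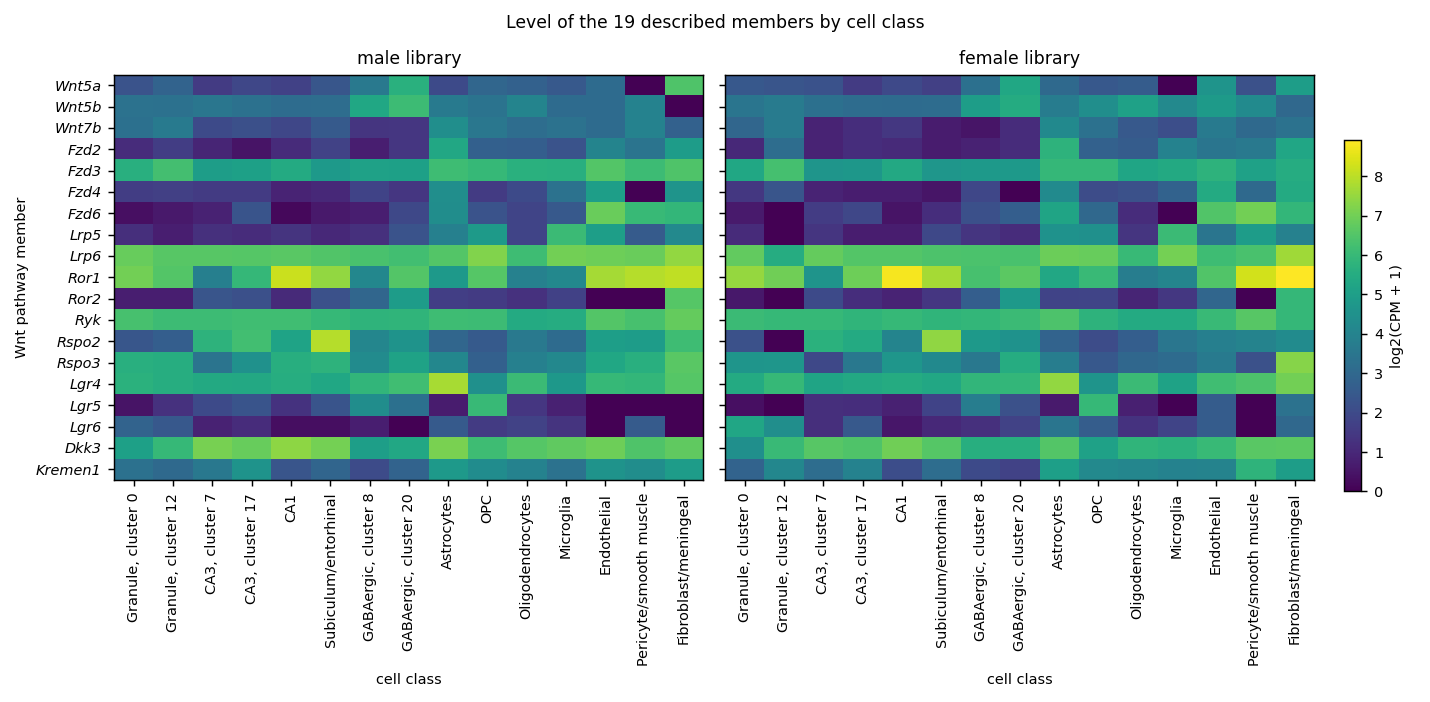
Each panel shows 1 library, with the male library on the left, members down the side and 15 cell classes along the bottom; the colour is log2(CPM + 1). Lrp6, Ryk and Fzd3 are coloured in every class of both panels, whereas Lgr5 stands out in oligodendrocyte precursors and Rspo2 in subiculum or entorhinal neurons.

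R-spondins and their receptors held both members with a single leading class, meaning a class at the top in both libraries and at least 2-fold over the next in each. They were Rspo2 in subiculum or entorhinal neurons and Lgr5 in oligodendrocyte precursors. Only the 15 classes followed here were ranked, and clusters that no marker list named were left out of the ranking. This was 2 of 19 members, or 10.5%, against 9.35% of all 11361 genes that met the same filter, so the share lay near the background. Between the libraries, 4 of 71 pairs of a member and a class that passed the filter were at least 2-fold apart, or 5.63%, against 1.36% of all 66825 pairs of a gene and a class. The 4 pairs belonged to Rspo2, Rspo3, Lgr6 and Ror1.

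Rspo2, a secreted R-spondin (mm10 chromosome 15, 43020794 to 43170826, minus strand), was highest in the excitatory neurons of the subiculum or entorhinal cortex, the output side of the hippocampus. It reached 243 CPM there in the male library (interval 227 to 259, 924 UMIs) and 173 CPM in the female library (161 to 185, 846 UMIs). The next classes were both of CA3 neurons, cluster 17 at 73.6 CPM in the male library against 42.9 in the female and cluster 7 at 53.4 CPM in the male library against 50.1 in the female. In subiculum or entorhinal neurons, therefore, the level was several times that of any other named class in each library. A Rspo2 UMI was found in 68.2% of male against 67.6% of female subiculum nuclei. With every nucleus thinned to 1000 UMIs, the shares were 21.1% of male against 15.1% of female nuclei. Those of microglia, taken as background, were 0.530% of male against 1.10% of female nuclei. An unnamed cluster led by Gm49906, Tshz2 and Dpp10 had 152 CPM in the male library against 91.1 in the female, and another led by Vwc2l and Sntb1 had 124 CPM in the male library against 53.6 in the female. Nuclei that no marker list named thus also carried Rspo2, and the subiculum level was less than 2-fold that of the first of these clusters in each library. The lead of at least 2-fold therefore holds among the named classes only.

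Along the trisynaptic circuit Rspo2 was low in dentate granule neurons of cluster 0, with 4.22 CPM in the male library against 3.598 in the female. CA1 neurons, the relay after CA3, had 35.3 CPM in the male library (32.4 to 38.4, 547 UMIs) against 15.1 in the female (13.2 to 17.1, 235 UMIs). The levels in CA3 cluster 7 had overlapping intervals and the CA1 levels did not. In CA1 the male level was 2.34-fold the female level (2.01 to 2.74), a log2 ratio of 1.01 when 5 CPM are added to each side, as in all log2 ratios here. Of all genes that passed the filter in CA1 neurons, 0.345% were at least 2-fold higher in the male library.

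The CA1 nuclei of the libraries were not spread alike over finer clusters. At a finer resolution, nuclei of a cluster led by 4921539H07Rik made up 70.0% of the male class against 89.8% of the female class, and Rspo2 there was 20.01 CPM in the male library against 12.5 in the female. Nuclei of a cluster led by 2600014E21Rik and Cpne7 made up 28.3% of the male class against 9.74% of the female class, and Rspo2 there was 72.0 CPM in the male library against 37.6 in the female. Rspo2 was thus higher in the male library within both, and the cluster with the higher level formed a larger share of the male class. That cluster, led by 2600014E21Rik, also took 40 male and 16 female nuclei of the subiculum or entorhinal class, so it lay across both classes. With the CA1 class limited to the cluster led by 4921539H07Rik the log2 ratio was 0.51, under the 2-fold line. Markers of subiculum neurons, the class with the most Rspo2, summed to 186 CPM in male against 133 in female CA1 neurons, with 7 of 8 higher in the male library and none at 0. Granule neuron markers summed to 143 CPM in male against 101 in female CA1 neurons, with 8 of 8 higher in the male library. Of all 6659 genes that passed the filter in CA1 neurons, 4672 were higher in the male library. The part of both marker lists in the Rspo2 result was not tested.

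Rspo3, the other R-spondin with sizeable counts (chromosome 10, 29452416 to 29535867, minus strand, overlapped by Gm20276 on the same strand), was spread over several neuron classes. Its highest level in both libraries was in fibroblasts or meningeal cells, with 99.2 CPM in the male library against 157 in the female, from 37 male and 100 female nuclei. Of the 9 classes compared it passed the filter in subiculum, granule and CA1 neurons, and the male level was the higher one in all 3. In subiculum or entorhinal neurons it had 53.4 CPM in the male library (46.3 to 61.2, 203 UMIs) against 17.97 in the female (14.4 to 22.1, 88 UMIs). That is a male level 2.97-fold the female level (2.30 to 3.86) and a log2 ratio of 1.35, in a class where 0.697% of genes were at least 2-fold higher in the male library. In granule neurons of cluster 0 Rspo3 had 48.7 CPM in the male library against 24.2 in the female (log2 ratio 0.88), and in CA1 neurons 47.5 CPM in the male library against 24.7 in the female (0.82). Neither passed 2-fold with 5 CPM added, though their intervals did not overlap. GABAergic neurons of cluster 20, with under 200 nuclei of each sex, had 34.4 CPM in the male library against 44.7 in the female. In CA3 neurons of cluster 7, below the filter, Rspo3 had 9.70 CPM in the male library against 2.84 in the female.

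Within subiculum or entorhinal neurons the difference in Rspo3 was present in both finer clusters that could be compared. The cluster led by Gm42705, with 86.3% of the male class against 94.0% of the female class, had 47.1 CPM in the male library against 17.3 in the female. The cluster led by 2600014E21Rik, which also held CA1 nuclei, had only 40 male and 16 female nuclei of this class. Its level was 95.6 CPM in the male library against 42.1 in the female. The male level was the higher one in each. CA3 markers moved with the comparison: 1 of 8 was higher in the male library, their summed level was 364 CPM in male against 725 CPM in female subiculum neurons, and Iyd had no UMI in 1 library. Oligodendrocyte markers summed to 342 CPM in male against 695 CPM in female subiculum neurons, with 0 of 8 higher in the male library. Astrocyte markers summed to 289 CPM in male against 373 CPM in female, also with 0 of 8 higher. Of the CA1 markers 7 of 8 were higher in the male library, though their sum was 2059 CPM in male against 2392 CPM in female. Of all 6884 genes that passed the filter in this class, 4242 were higher in the male library. The part of these marker lists in the Rspo3 result was not tested.

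Rspo1 and Rspo4 stayed below the filter in every class. Rspo1 had 36 UMIs in the male and 64 UMIs in the female library over all nuclei, and Rspo4 had 2 UMIs in the male and 5 UMIs in the female library.

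Lgr4, the R-spondin receptor with UMIs in each of the 15 classes, was highest among them in astrocytes, at 212 CPM in the male library against 177 in the female. In the other 8 classes compared it lay between 20.9 and 66.7 CPM in the male library against 23.2 to 67.0 in the female, lowest in oligodendrocyte precursors and highest in oligodendrocytes in both. Its log2 ratio was between -0.33 and 0.25 over the 9 classes, so no class approached 2-fold. Ependymal cells, outside the 15 classes, had 207 CPM of Lgr4 in the male library against 218 in the female. They held only 5 male and 80 female nuclei.

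Lgr5, known as a marker of stem cells in several epithelia (chromosome 10, 115450311 to 115587780, minus strand, overlapped by A930009A15Rik on the other strand), was highest in oligodendrocyte precursors. Its level in these precursors was 63.8 CPM in the male library (49.4 to 81.0, 67 UMIs) against 61.3 in the female (49.6 to 74.9, 95 UMIs), a log2 ratio of 0.05. Cluster 8, led by Kcnmb2, Nxph1 and Reln and named GABAergic, came next among the 15 classes with 19.8 CPM in the male library against 12.8 in the female. Above it stood the unnamed cluster 11, led by 6330411D24Rik, Ebf1 and Pld5, with 28.1 CPM in the male library (9 UMIs in 38 nuclei) against 26.6 in the female (200 UMIs in 776 nuclei). Mature oligodendrocytes had 1.64 CPM in the male library against 0.730 in the female, so the receptor transcript was near 0 in the cells these precursors give rise to. A UMI was found in 16.4% of male against 16.5% of female precursors, and after thinning to 1000 UMIs in 7.26% of male against 5.99% of female precursors. After the same thinning, 0.132% of male against 0% of female microglia had one, the female upper limit being 0.579%. Lgr4 ran the other way between these stages, with 20.9 CPM in male against 23.2 in female precursors and 66.7 CPM in male against 67.0 in female oligodendrocytes.

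**Figure D2:**
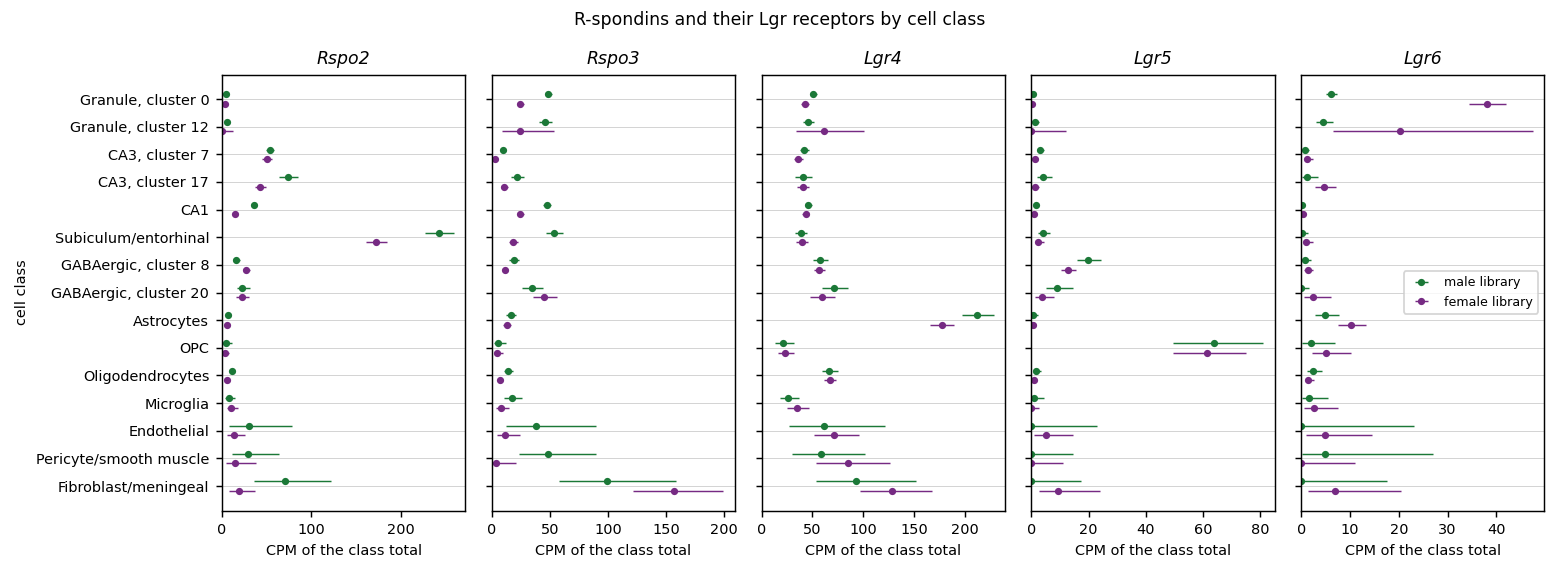
CPM of the class total (horizontal axis) for each R-spondin and Lgr receptor in 15 cell classes, with points for the male and the female library and exact 95% Poisson intervals as bars. Rspo2 peaks in subiculum or entorhinal neurons and Lgr5 in oligodendrocyte precursors in both libraries, and Lgr6 stands at 6.16 CPM in the male library against 38.1 in the female in granule neurons of cluster 0.

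Lgr6, the third receptor of the family (chromosome 1, 134983301 to 135105276, minus strand), was highest in dentate granule neurons among the 9 classes, and there the libraries differed. Granule neurons of cluster 0 had 6.16 CPM in the male library (5.05 to 7.43, 108 UMIs in 3198 nuclei) against 38.1 in the female (34.4 to 42.0, 402 UMIs in 1670 nuclei). The log2 ratio was -1.95, and the female level was 6.18-fold the male level (4.99 to 7.72). In that class 0.197% of all genes that passed the filter were at least 2-fold higher in the female library. A UMI was found in 3.03% of male against 18.4% of female granule neurons of cluster 0. After thinning to 1000 UMIs it was 0.501% of male (0.287% to 0.812%) against 3.37% of female granule neurons (2.55% to 4.35%). Among microglia it was 0% of 755 male nuclei (upper limit 0.487%) against 0.472% of 635 female nuclei. The male share thus lay close to that of microglia and the female share above it.

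The Lgr6 difference ran through all 3 finer clusters of granule neurons. The cluster led by Gm6999 had 1.67 CPM in the male library against 19.99 in the female, that led by Glis3 had 10.95 CPM in the male library against 50.1 in the female, and that led by C1ql2 had 5.15 CPM in the male library against 37.6 in the female. The clusters kept the same order in both libraries. Granule neurons of cluster 12, with 833 male and 51 female nuclei, had 4.51 CPM in the male library against 20.3 in the female. The 8 granule neuron markers summed to 1959 CPM in male against 1852 in female nuclei of cluster 0, with 5 of 8 higher in the male library. Other lists moved with Lgr6 there: oligodendrocyte markers summed to 773 CPM in male against 1214 in female nuclei (2 of 8 higher in male), precursor markers to 930 CPM in male against 1190 in female nuclei (2 of 8), endothelial markers to 28.9 CPM in male against 57.0 in female nuclei (0 of 8) and pericyte markers to 10.1 CPM in male against 12.5 in female nuclei (0 of 8), with none at 0. Of all 7115 genes that passed the filter in cluster 0, 4817 were higher in the male library. The part of these marker lists in the Lgr6 result was not tested. Astrocytes, below the filter, had 4.82 CPM of Lgr6 in the male library against 10.1 in the female.

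**Figure D3:**
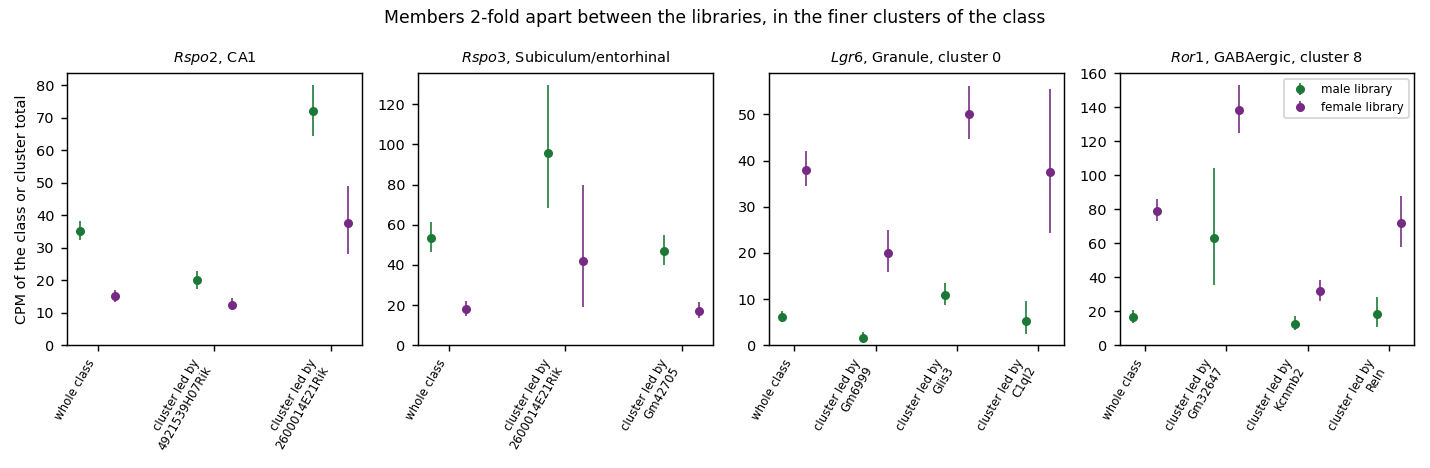
CPM (vertical axis) of the 4 members at least 2-fold apart between the libraries, in the whole class and in its finer clusters with at least 10 nuclei per library; points are the male and the female library, male on the left, and bars are exact 95% Poisson intervals. Within every finer cluster shown, each member is higher in the same library as in the whole class.

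The promoters of the members at least 2-fold apart were looked up because Wnt target genes can carry sites for TCF/LEF, the DNA-binding partners of beta-catenin. RefSeq promoter windows (build GRCm38.p6, 250 bases before to 50 bases after the start) were at hand for Lgr6 and Ror1, and capitals mark CTTTGA, the core of the TCF/LEF motif, or TCAAAG, the same letters read on the other strand. The Lgr6 window, chr1:135105227-135105526 on the minus strand, held no match.
Lgr6: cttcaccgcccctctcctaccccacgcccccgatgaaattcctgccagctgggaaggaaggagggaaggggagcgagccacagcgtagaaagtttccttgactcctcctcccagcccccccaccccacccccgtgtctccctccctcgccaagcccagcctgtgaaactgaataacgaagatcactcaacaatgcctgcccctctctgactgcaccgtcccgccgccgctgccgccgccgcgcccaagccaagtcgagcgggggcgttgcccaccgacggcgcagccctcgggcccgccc
The Ror1 window, chr4:100095541-100095840 on the plus strand, held 1 match on the other strand, starting at position -205 relative to the start.
Ror1: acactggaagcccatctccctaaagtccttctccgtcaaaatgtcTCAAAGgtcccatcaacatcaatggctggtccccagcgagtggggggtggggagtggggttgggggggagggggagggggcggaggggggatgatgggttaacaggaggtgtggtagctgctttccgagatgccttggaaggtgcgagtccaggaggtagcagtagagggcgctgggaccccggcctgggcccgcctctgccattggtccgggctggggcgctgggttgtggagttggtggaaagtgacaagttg
Such a match was present in 16.0% of all 32851 promoters of this length and in 13.2% of the 38 promoters of 35 members in the table, so the family did not stand out from the background. The match is a run of letters and not a mapped binding site. The GC content was 67.7% in the Lgr6 and 62.3% in the Ror1 window, against a median of 52.7% over all promoters.

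Of the 19 Wnt ligands, 3 were described, and their levels were highest in inhibitory neurons, glia or fibroblasts. Wnt5a, which signals mainly through Ror receptors, was found in the GABAergic neurons of cluster 20, led by Col19a1, Dlx6os1 and Adarb2, at 49.4 CPM in the male library against 38.7 in the female. Fibroblasts or meningeal cells had 87.5 CPM in the male library against 30.4 in the female, from few nuclei, and cluster 8 had 11.2 CPM in the male library against 8.78 in the female. Wnt5b, its close relative, followed the same 2 neuron groups, with 68.8 CPM in male against 44.1 in female cluster 20 and 38.6 CPM in male against 30.4 in female cluster 8. CA1 neurons had 7.80 CPM of Wnt5b in the male library against 7.63 in the female. In each library both transcripts were therefore higher in clusters 20 and 8 than in the excitatory neuron classes among the 9 compared. Of cluster 8, however, only 26.9% of male and 23.6% of female nuclei kept the GABAergic name at the finer resolution.

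Wnt5b was also present in the oligodendrocyte lineage. Oligodendrocytes had 15.2 CPM in the male library (65 UMIs) against 32.9 in the female (225 UMIs), a log2 ratio of -0.90, which stayed under 2-fold with 5 CPM added. The class came mainly from cluster 2 in the male library (97.5% of nuclei) and from cluster 5 in the female library (61.7%). Within cluster 2 Wnt5b had 14.02 CPM in the male library against 29.7 in the female, so the difference was of the same size inside the shared cluster. In cluster 5, where the male library had 58 nuclei and 7 Wnt5b UMIs, the values were 52.2 CPM in the male library against 34.2 in the female. After thinning to 1000 UMIs a Wnt5b UMI was found in 1.27% of male against 2.75% of female oligodendrocytes. Among microglia the shares were 0.795% of male against 1.57% of female nuclei. The share in microglia, taken as background, was thus also higher in the female library, and its part in the oligodendrocyte ratio was not tested.

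Wnt7b, a ligand of the beta-catenin route that also acts on blood vessels of the brain, was highest in astrocytes among the 9 classes, with 20.2 CPM in the male library against 17.6 in the female. Granule neurons of cluster 0 had 8.83 CPM in the male library against 6.72 in the female. The remaining 16 ligands stayed below the filter. Wnt2 came nearest, in CA1 neurons, with 14.1 CPM in the male library (219 UMIs) against 19.9 in the female (310 UMIs). Wnt7a stood at 13.0 CPM in male against 12.4 in female astrocytes. Wnt2b, Wnt4, Wnt3, Wnt9a, Wnt10a, Wnt10b, Wnt11, Wnt16, Wnt1, Wnt3a, Wnt9b, Wnt8b, Wnt6 and Wnt8a also stayed below it. Wnt3, a ligand known for adult neurogenesis, had 60 UMIs in the male and 231 UMIs in the female library over all nuclei, and in oligodendrocytes it had 4.92 CPM in the male library against 10.4 in the female. Wnt8b, known from the embryonic hippocampal primordium, had 3 UMIs in the male and 29 UMIs in the female library.

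Of the 10 Frizzled receptors 4 were described: Fzd3 was found in every class, while Fzd2, Fzd4 and Fzd6 were higher in astrocytes or vascular cells than in any neuron class among the 15. Fzd3, a receptor of axon guidance and planar polarity, had 27.3 to 69.9 CPM in the male library against 23.9 to 60.1 in the female over the 9 classes compared, highest in astrocytes in both. Its level was higher in the male library in 9 of 9 classes, by log2 ratios of 0.04 to 0.37, none near 2-fold. With ratios centred on the median gene of each class, those of oligodendrocyte precursors (0.04, median gene 0.06) and CA1 neurons (0.06, median gene 0.11) fall below 0. Fzd2 was an astrocyte transcript, with 40.1 CPM in the male library against 52.7 in the female, while CA1 neurons had 1.16 CPM in the male library against 1.09 in the female.

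Fzd4, the receptor for norrin in retinal and brain vessels, had 30.7 CPM in male against 43.1 in female endothelial cells. Fibroblasts or meningeal cells had 23.3 CPM of Fzd4 in the male library against 42.2 in the female, and astrocytes 20.2 CPM against 18.3. Only the astrocyte level of Fzd4 passed the filter. Fzd6, a planar polarity receptor, was highest in the classes of vessels and meninges, with 115 CPM in male against 87.9 in female endothelial cells, 63.2 CPM in male against 129 in female pericytes or smooth muscle cells, and 58.4 CPM in male against 58.5 in female fibroblasts or meningeal cells. In astrocytes Fzd6 had 19.9 CPM in the male library against 36.3 in the female, a log2 ratio of -0.73, and in CA1 neurons 0.129 CPM in the male library against 0.384 in the female. The endothelial class held only 26 male and 168 female nuclei, so its Fzd4 and Fzd6 levels rest on few UMIs. Fzd1, Fzd5, Fzd7, Fzd8, Fzd9 and Fzd10 stayed below the filter, with Fzd7 at 16.4 CPM in male against 15.2 in female oligodendrocytes.

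The 5 co-receptors were all described. Lrp6, which is needed for the beta-catenin route, lay between 70.0 and 148 CPM in the male library against 63.8 to 131 in the female over the 9 classes, with no log2 ratio beyond -0.37 or 0.38. Its relative Lrp5 passed the filter in 3 of the 9 classes: microglia had 65.6 CPM in the male library against 67.0 in the female, oligodendrocyte precursors 27.6 CPM in the male library against 21.3 in the female, and astrocytes 13.9 CPM in the male library against 22.3 in the female (log2 ratio -0.54). CA1 neurons had 1.55 CPM of Lrp5 in the male library against 0.641 in the female. After thinning to 1000 UMIs, 6.49% of male against 6.61% of female microglia had an Lrp5 UMI, as did 0.0596% of male against 0.0639% of female CA1 neurons. Ryk, a kinase-like Wnt receptor, lay between 42.4 and 78.9 CPM in the male library against 42.9 to 85.0 in the female over the same 9 classes. Ror2 was found in fibroblasts or meningeal cells, with 93.4 CPM in the male library against 60.9 in the female, and in GABAergic cluster 20, with 29.4 CPM in the male library against 26.8 in the female, the cluster that also had Wnt5a.

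Ror1, a receptor tyrosine kinase-like co-receptor of Wnt5a (chromosome 4, 100095791 to 100444765, plus strand, overlapped by Gm12701 on the same strand and Gm12706 on the other), ranged widely among neuron classes. CA1 neurons had 293 CPM in the male library against 444 in the female, subiculum or entorhinal neurons 176 CPM in the male library against 207 in the female, and granule neurons of cluster 0 130 CPM in the male library against 178 in the female. CA3 neurons of cluster 7, which lie between granule and CA1 neurons in the circuit, had 13.3 CPM in the male library against 23.3 in the female. CA3 neurons of cluster 17 had 60.7 CPM in the male library against 121 in the female. Ror1 was thus lower in both CA3 clusters than in granule and CA1 neurons of the same library. After thinning to 1000 UMIs, 22.5% of male against 34.0% of female CA1 neurons had a Ror1 UMI, as did 1.32% of male against 1.57% of female microglia. Outside neurons, pericytes or smooth muscle cells had 243 CPM in the male library against 312 in the female, fibroblasts or meningeal cells 268 CPM in the male library against 480 in the female, and the 25 choroid plexus nuclei, all from the male library, 376 CPM.

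Ror1 was lower in the male library in 6 of the 7 classes in which it passed the filter. The log2 ratio was -0.50 in astrocytes, -0.59 in CA1, -0.44 in granule and -0.23 in subiculum or entorhinal neurons and -0.63 in CA3 neurons of cluster 7. Oligodendrocyte precursors were the exception, with 93.3 CPM in the male library against 65.1 in the female. In cluster 8 it passed 2-fold, with 16.6 CPM in the male library (13.1 to 20.9, 74 UMIs) against 79.3 in the female (73.0 to 86.0, 587 UMIs), a log2 ratio of -1.96 and a female level 4.77-fold the male level (3.74 to 6.16). Of all genes that passed the filter in cluster 8, 1.17% were at least 2-fold higher in the female library.

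The 2 libraries filled cluster 8 differently. A finer cluster led by Gm32647 and Trhde, genes that also lead CA3 clusters here, took 10 male and 143 female nuclei, or 2.21% of the male against 26.6% of the female nuclei of cluster 8, and had 63.4 CPM of Ror1 in the male library against 139 in the female. The finer cluster led by Kcnmb2 had 12.6 CPM in the male library against 31.7 in the female, and that led by Reln, which kept the GABAergic name, had 18.3 CPM in the male library against 71.9 in the female. Ror1 was lower in the male library in all 3. The CA3 marker list in cluster 8 summed to 593 CPM in the male library against 1029 in the female, with 1 of 8 markers higher in the male library and none at 0. The GABAergic list summed to 1778 CPM in the male library against 1432 in the female, with 9 of 10 higher in the male library. Oligodendrocyte markers summed to 384 CPM in the male library against 603 in the female, with 0 of 8 higher in the male library. Of all 7354 genes that passed the filter in cluster 8, 5082 were higher in the male library. The part of these nuclei and markers in the whole-cluster ratio was not tested.

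Of the 12 secreted antagonists and Dkk partners, 2 were described: Dkk3, a divergent Dickkopf protein, and Kremen1, a receptor that binds Dkk1 and Dkk2. Dkk3 (chromosome 7, 112116017 to 112159057, minus strand) was highest in CA1 neurons among the 9 classes, with 168 CPM in the male library against 126 in the female, and had 136 CPM in male against 95.3 in female CA3 neurons of cluster 7. It was low in granule neurons of cluster 0, with 32.4 CPM in the male library against 20.6 in the female. Granule neurons of cluster 12 had 61.3 CPM in the male library (353 UMIs) against 65.1 in the female (16 UMIs). Both granule clusters thus lay below CA1 and CA3 neurons of cluster 7 in each library, cluster 12 by less than cluster 0. Outside the 9 classes, the unnamed cluster 13 stood above CA1 neurons, with 276 CPM of Dkk3 in the male library (235 UMIs) against 168 in the female (95 UMIs). So did Cajal-Retzius cells, with 293 CPM in the male library against 214 in the female, and ependymal cells, with 207 CPM against 156, both from few nuclei. Kremen1 was highest in astrocytes among the 9 classes, with 27.4 CPM in the male library against 31.7 in the female, and the unnamed cluster led by Vwc2l had 59.6 CPM in the male library against 63.3 in the female.

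Dkk3 was higher in the male library in 8 of 9 classes, all but cluster 8, where it had 31.0 CPM in the male library against 46.5 in the female. The ratios nearest to 2-fold were in glia: microglia had 106 CPM in the male library against 51.5 in the female (log2 ratio 0.97), and oligodendrocyte precursors 69.5 CPM in the male library against 32.9 in the female (0.98). Oligodendrocytes had 93.4 CPM in the male library against 56.1 in the female (0.69), and within cluster 2, the cluster with most male oligodendrocytes, 94.5 CPM in the male library against 68.3 in the female. In the same classes the summed level of granule neuron markers was higher in the male library too, though in precursors only 4 of 8 markers were. Their list summed to 378 CPM in male against 157 in female microglia, with 8 of 8 higher in the male library, to 209 CPM in male against 157 in female precursors, with 4 of 8 higher, and to 392 CPM in male against 214 in female oligodendrocytes, with 8 of 8 higher. The CA1 list, from the class with the most Dkk3 among the 9, summed to 856 CPM in male against 865 in female microglia, with 6 of 8 higher in the male library. It summed to 499 CPM in male against 441 in female precursors, with 7 of 8 higher. In oligodendrocytes it summed to 541 CPM in male against 453 in female nuclei, with 8 of 8 higher. None of these markers was at 0, and their part in the Dkk3 levels of glia was not tested. Under a stricter filter (1000 genes or more and no more than 1% of UMIs mitochondrial), Dkk3 in microglia turned to 93.1 CPM in the male library against 104 in the female, from 90 male and 17 female nuclei.

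The classical secreted antagonists were scarce. Dkk1 had 2 UMIs in the male and 4 UMIs in the female library over all nuclei. Wif1 had 4.04 CPM in male against 5.13 in female nuclei of cluster 8 and 3.88 CPM in male against 6.55 in female nuclei of cluster 20. Sfrp4 had 11.7 CPM in male against 39.8 in female fibroblasts or meningeal cells, from 2 male and 17 female UMIs. Sfrp1, Sfrp2, Sfrp5, Dkk2, Dkk4, Dkkl1 and Kremen2 also stayed below the filter. Over the 34 members below it, the sum over both libraries ranged from 6 to 1127 UMIs, and 8 had under 50 UMIs.

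Of the 4 member pairs at least 2-fold apart, 2 were higher in male and 2 in female nuclei. Over all genes 450 pairs, or 0.673%, were at least 2-fold higher in male nuclei, and 459 pairs, or 0.687%, in female nuclei. With ratios centred on the median gene of each class the split was 1 higher in the male and 3 higher in the female library. The median log2 ratio of the members was furthest from that of all genes in oligodendrocyte precursors, 0.33 for 8 members against 0.06 for all genes, and in astrocytes, -0.22 for 12 members against 0.07. Pairs in different classes of 1 library share that library and are not independent.

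**Figure D4:**
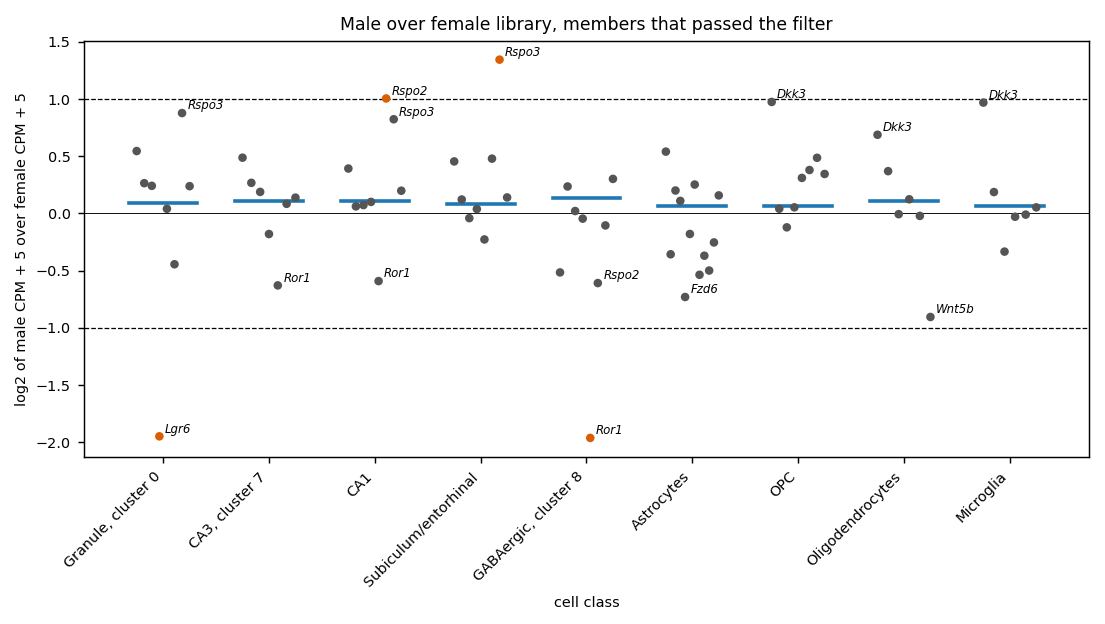
Each point is a member that passed the filter in a class (horizontal axis), placed by its log2 ratio of male over female CPM with 5 CPM added to each side (vertical axis); orange points lie at least 2-fold apart (dashed lines), blue bars are the median of all genes in the class, and members at least 1.5-fold apart are named. Rspo3 in subiculum or entorhinal neurons is the highest point at 1.35, and Lgr6 at -1.95 and Ror1 at -1.96 are the lowest.

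The other genes of the pathway were taken from a list of 56: partners in secretion and outside the cell, receptor turnover, the beta-catenin route, planar polarity, and transcripts used as readouts of beta-catenin signalling. Over 242 pairs of gene and class that passed the filter, 1 was at least 2-fold apart, or 0.413%, against the 1.36% of all genes. The count was 0 of 140 pairs for the beta-catenin route, 0 of 38 for secretion and extracellular partners, 0 of 11 for receptor turnover and 1 of 49 for planar polarity. The pair was Daam2, a formin that acts downstream of Dishevelled, in oligodendrocyte precursors, with 15.2 CPM in the male library (16 UMIs) against 56.7 in the female (88 UMIs), a log2 ratio of -1.61, in a class where 0.946% of all genes were at least 2-fold higher in the female library. Daam2 is far higher in oligodendrocytes, at 432 CPM in the male library against 662 in the female, and within their cluster 2 at 428 CPM in the male library against 486 in the female. Oligodendrocyte markers in the precursors moved with it, 0 of 8 higher in the male library, 1570 CPM in the male against 3048 CPM in the female library and none at 0. Among precursors that kept their class in the finer clustering, Daam2 had 7.90 CPM in the male library against 12.2 in the female, a log2 ratio of -0.42. The part of the other precursors in the ratio was not tested.

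TCF/LEF factors, through which beta-catenin acts on genes, differed widely between classes. Tcf7l2 had 420 CPM in male against 424 in female astrocytes, 262 CPM in male against 337 in female microglia and 236 CPM in male against 192 in female oligodendrocyte precursors, but 1.48 CPM in male against 4.04 in female CA1 neurons. Tcf7l1 had 108 CPM in male against 107 in female astrocytes. Lef1 was led by endothelial cells, with 330 CPM in the male library against 179 in the female, as was Apcdd1, a membrane inhibitor and readout of the pathway, with 154 CPM in the male library against 99.5 in the female. Lrp4, which binds Wnt modulators, was led by astrocytes, with 188 CPM in the male library against 147 in the female. These 3 of 45 genes with a single leading class were 6.67%, against the 9.35% of all genes.

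The ligases that R-spondins draw off had their own pattern. Znrf3 was highest in astrocytes among the 9 classes, with 272 CPM in the male library against 301 in the female, the class that was also highest for Lgr4. Rnf43 had 96.1 CPM in male against 72.2 in female oligodendrocyte precursors, the class that led for Lgr5, and 1.35 CPM in male against 0.961 in female CA1 neurons. Axin2, a negative regulator and the most used readout of the route, stood at 20.8 CPM in male against 13.4 in female astrocytes, and at 23.3 CPM in male against 18.7 in female granule neurons of cluster 0. Sp5, another readout, was at or near 0 UMIs in every class. Wls, the carrier that brings Wnt proteins to the cell surface, had 138 CPM in male against 134 in female microglia, 85.9 CPM in male against 86.8 in female oligodendrocytes and 3.61 CPM in male against 4.12 in female CA3 neurons of cluster 7.

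**Figure D5:**
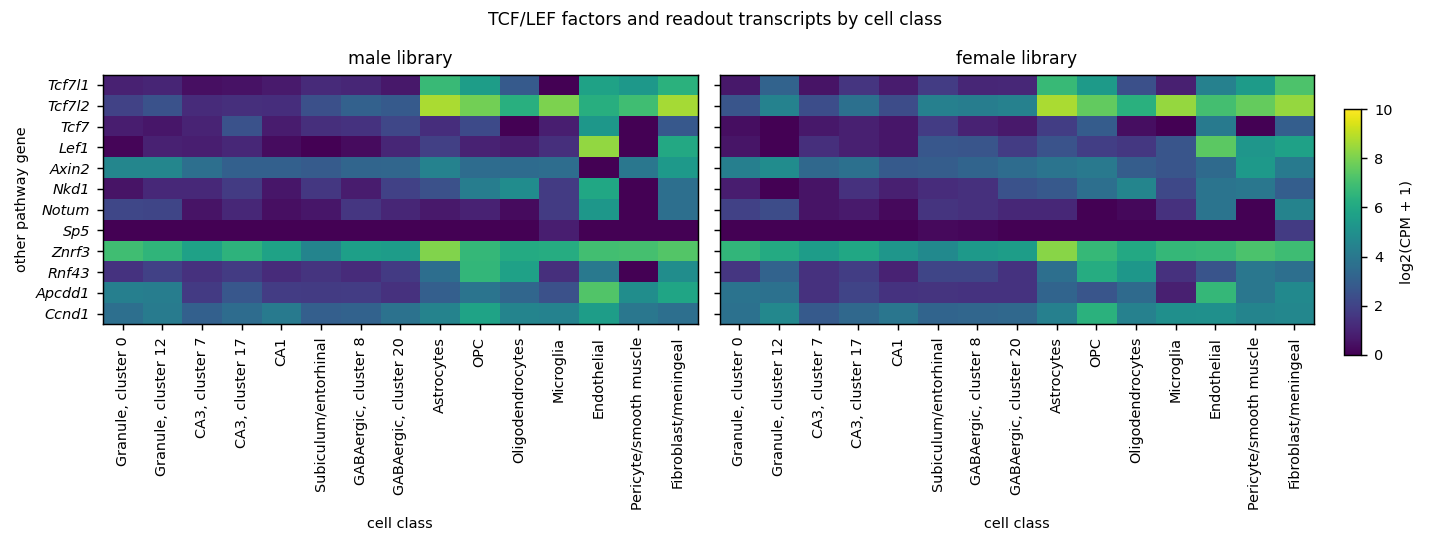
Colour shows log2(CPM + 1) of TCF/LEF factors and readout transcripts (vertical axis) in 15 cell classes (horizontal axis), with the male library on the left. Tcf7l2 is bright in astrocytes, oligodendrocyte precursors, microglia and fibroblasts or meningeal cells, and Lef1 in endothelial cells, in both libraries.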

How the data were processed

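The authors deposited unnormalised UMI counts, 1 matrix of genes by barcodes for each library. Cell Ranger 7.0.1 wrote them, per the file headers, and bcl2fastq 2.20.0.422 and build mm10 are named in the submitters' processing notes. Not given in the sources used here are the annotation release, intron and strand settings and cell calling. Of the members, 5 are overlapped by a gene on the same strand and 16 by one on the other strand, and their reads may not be told apart.

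Barcodes needed 500 or more genes and no more than 5% of UMIs mitochondrial, which kept 16034 of 16174 male and 19251 of 20150 female barcodes. Scrublet in scanpy 1.11.5, at an expected 8%, called 1534 male nuclei doublets. It called 0 female nuclei, so the 1445 female nuclei with the top scores were taken instead. These nuclei were removed, as were 6 of 40 clusters with over 40% doublets. Clustering used 3000 variable genes without the members, 40 principal components, 15 neighbours and Leiden resolution 1 (leidenalg 0.10.2), with no integration of the libraries. A cluster took a class name when 3 or more markers of the class lay over 2-fold and its leading genes held more of them than of another class. Ties and the split of 1 vascular cluster were settled after the clusters were seen, and 5 clusters stayed unnamed.

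UMIs were summed per library and class and given as CPM. In log2 ratios 5 CPM were added to the male and to the female level, which understates low genes. A pair passed the filter with 50 UMIs over both libraries and 20 CPM in either. Intervals at 95% are exact Poisson for levels, conditional binomial for ratios and Clopper-Pearson for shares, and UMI sums leave library-to-library error unmeasured. Coordinates of genes are mm10. The members and gene lists were chosen with earlier results of these data known. Every gene of the family rule is accounted for; other pathway genes are named where they passed 2-fold or had 1 leading class, and the remaining ones named are well-known steps of the route chosen after their values were seen.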

Additional observations from a re-analysis of the deposited data

How the results depend on the processing

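The 14 pairs of a member and a class at least 1.5-fold apart kept their direction in 153 of 154 values under the alternatives; the exception was Dkk3 in microglia under a stricter nucleus filter (1000 genes or more, no more than 1% mitochondrial UMIs) (log2 ratio -0.16). The 4 pairs past 2-fold kept their direction in 44 of 44 values and stayed past 2-fold in 36, with log2 ratios of 0.51 to 1.18 for Rspo2 in CA1, 0.91 to 1.52 for Rspo3 in subiculum, -2.45 to -1.15 for Lgr6 in granule and -2.19 to -1.01 for Ror1 in cluster 8. The count of member pairs past 2-fold was 4; it was 7 with a pseudocount of 1 CPM, 2 with 20 CPM, 7 with classes rebuilt at Leiden resolution 0.5 and 2 with members allowed among the variable genes. The count for other pathway genes was 1; it was 2 with a pseudocount of 1 CPM, 5 without the filter, 7 under the stricter nucleus filter, 3 after thinning to 1000 UMIs, 3 at resolution 0.5 and 0 among nuclei with the same class at resolution 1 and 2. Members with a single leading class were 2, but 4 at 1.5-fold over the next class and 1 after thinning. The shares over all genes under each alternative are not given here, so these counts cannot be read against the background. The cause of the shifts was not tested. Leaving out barcodes that both libraries share and limiting classes to nuclei stable over resolutions were added after seeing the data. Depth limits the 8 members with under 50 UMIs in all and the endothelial class of 26 male and 168 female nuclei. No paired analysis was possible because there is 1 library of each sex.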
